A study of Mus musculus with 20 samples.

Results

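The genes described here are 10 members of the *Galnt* family, *Galnt15*, *Galnt1*, *Galnt2*, *Galnt7*, *Galnt9*, *Galnt11*, *Galnt13*, *Galnt14*, *Galnt16* and *Galnt18*, taken by gene symbol from the 17211 genes of a brain expression table. They were chosen with their difference between *Winnie* and C57BL/6 brains known, so their values in that comparison are a description, and the one count of limma calls among them is given only beside that of all genes. The table holds brains of 10 *Winnie* mice, a model of spontaneous chronic colitis caused by a missense change in *Muc2*, the main mucin of the gut, and of 10 C57BL/6 mice, which the study calls littermates. All mice were 14 weeks old, no treatment is given in the labels, and 5 of each genotype were labelled female and 5 male. By the labels each sample is brain RNA of its own mouse, sequenced after polyA selection. The study's text gives fewer mice for the brain than the labels do and does not say which, so all 20 labelled samples were used, and if some share a mouse the spread and n given here are those of samples. The values are CPM, in which the reads of a gene are set against all counted reads of its sample. In such a bulk sample, fewer cells of a type and less RNA per cell cannot be told apart.

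*Galnt* genes encode polypeptide N-acetylgalactosaminyltransferases, Golgi enzymes that start mucin-type O-glycosylation by moving N-acetylgalactosamine from UDP-GalNAc to serine or threonine residues of a protein. C1galt1 then adds galactose, for which it needs its chaperone Cosmc (*C1galt1c1*), and sialyltransferases of the St3gal and St6galnac families cap the chain. The many Galnt isoforms differ in the sites they prefer and in the tissues that express them, and in brain their products include cell surface receptors and matrix proteins as well as mucins.

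Samples had between 16540303 and 23923769 reads on these genes, and the reads behind a value are given for the low members. Of 124 listed markers of brain cells, 119 were measured, with *Pvalb* counted in both the inhibitory and the cerebellar neuron list. Only the serotonin and hindbrain list was thin, with 7 of 12 measured, and *Gabra6*, *Pcp2*, *Slc6a4* and *Fev* were at 0 in some brain. Over all genes no sample stood apart, but C57BL/6 replicate 10 did in the cerebellar markers, with 12.8 CPM of *Cbln3* against a C57BL/6 median of 2.37 CPM. Without it the log2 fold change of *Galnt15* between genotypes was 0.76, as with it. *Xist* and *Ddx3y* went with the sex label in all 10 *Winnie* samples and against it in 9 of 10 C57BL/6 samples, so sex is compared in *Winnie* only and as labelled. The numbers after S in the sample descriptions run from 1 to 10 in C57BL/6 and from 11 to 20 in *Winnie* samples. What they number is not given, and any order they stand for cannot be told apart from genotype. *Muc2* was not analysed here.

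*Galnt15* (ENSMUSG00000021903) lies on the plus strand at chr14:32028989-32062197 in GRCm38. None of its 6326 exonic bases is shared with an exon of another gene, and none of the 6325 stretches of 50 bases in its transcripts occurs in another gene. The stretch just before its start is shown because no other member differed as much between genotypes, with those of *Galnt13* and *Galnt9*, members whose values were close between genotypes or lower in *Winnie*, beside it. Each is the first 136 bases of the RefSeq promoter window (GRCm38.p6) and ends before the annotated gene, on the plus strand at chr14:32028853-32028988, chr2:54436137-54436272 and chr5:110544105-110544240 in turn. Capitals mark CG dinucleotides.

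Galnt15: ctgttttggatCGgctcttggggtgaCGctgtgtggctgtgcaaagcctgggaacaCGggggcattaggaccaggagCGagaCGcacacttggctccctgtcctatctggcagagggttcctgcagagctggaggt
Galnt13: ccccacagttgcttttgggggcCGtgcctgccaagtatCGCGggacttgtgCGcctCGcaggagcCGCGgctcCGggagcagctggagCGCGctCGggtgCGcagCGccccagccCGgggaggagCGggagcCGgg
Galnt9: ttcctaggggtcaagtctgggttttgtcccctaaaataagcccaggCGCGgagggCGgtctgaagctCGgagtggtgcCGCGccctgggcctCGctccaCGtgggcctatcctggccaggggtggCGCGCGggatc

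The *Galnt15* stretch holds 5 CG dinucleotides against 16 in that of *Galnt13* and 11 in that of *Galnt9*, and the median of all 32851 windows is 2. Other members with close values between genotypes hold fewer, 4 in *Galnt14* and 2 in each stretch of *Galnt11*. The stretch of *Galnt7* holds 12 and those of *Galnt16* hold 8, 12 and 16, so a low count is not particular to *Galnt15*. The whole *Galnt15* window of 300 bases has a GC content of 57.3% and 9 CG dinucleotides, above the medians of all windows, 52.7% and 7. The windows of *Galnt9* and *Galnt13* shown in part hold 41 and 28, while another *Galnt9* window, inside the annotated gene, holds 2. On either strand the *Galnt15* window does not hold the letters TGTTCT, part of the glucocorticoid response element. No window found for the other members holds them either, and 19% of all windows do. The GC box, GGGCGG, is in 35.7% of all windows and in the windows of *Galnt9* and *Galnt13* shown in part, but not in that of *Galnt15*. It is also absent from the windows of *Galnt16* and from another window each of *Galnt9* and *Galnt11*. The *Galnt15* window also has no CCAAT box, which 37.4% of windows have. A TATA box, searched as TATAAA, is in 13.6% of windows and not in this one. Of the 3 windows shown in part, only that of *Galnt9* has an E-box, CACGTG, which 7.15% of windows have. RefSeq windows were found for 7 of the 10 members.

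*Galnt15* had a median of 3.35 CPM in C57BL/6 brains, with a lowest value of 2.32 and a highest of 7.24 CPM. In *Winnie* brains its median was 6.56 CPM, with a lowest value of 4.27 and a highest of 8.95 CPM. All 10 *Winnie* brains lay above the C57BL/6 median, as they did for 4.62% of all genes, and 3 lay above the highest C57BL/6 brain, so the groups overlapped. The rule used this contrast, so nothing is read from that. The overlap came from C57BL/6 replicate 2, the only C57BL/6 brain above the *Winnie* median, and from replicate 4 at 4.83 CPM, the only other one above the lowest *Winnie* brain. The mean was 3.77 ± 1.41 CPM (SD, n = 10) in C57BL/6 and 6.57 ± 1.35 CPM (SD, n = 10) in *Winnie*, a log2 fold change of 0.76 ± 0.15 (SE), or 1.69-fold, on log2(CPM + 0.5). It was 0.86 without C57BL/6 replicate 2. Between 44 and 165 reads stood behind each value. The coefficient of variation within a genotype was 30.1%, while counting alone gives 10.9%.

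*Galnt2* encodes a widely expressed transferase that acts on unmodified peptides, and in the brain table it was the lowest of the 10. Its C57BL/6 values ran from 0.774 over a median of 0.999 to 1.38 CPM. In *Winnie* they ran from 1.14 over 1.40 to 2.15 CPM. All 10 *Winnie* brains lay above the C57BL/6 median and 5 above the highest C57BL/6 brain, and the log2 fold change was 0.37 ± 0.10 (SE). These values rest on 13 to 40 reads, and their spread within a genotype, 21.8%, is close to the 21.5% that counting alone gives. *Galnt2* counts are also uncertain for another reason. Of its 4282 exonic bases in GRCm38, 3854 are also exonic on the same strand in *Gm20388*, an annotated gene that spans it, and 90.0% in all are shared with another gene. How the counting treated reads in these bases is not given in the sources used here.

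Among the other widely expressed members, *Galnt1* and *Galnt11* were close between the genotypes. *Galnt1*, like *Galnt2* an enzyme that starts chains on unmodified peptides, had means of 46.5 ± 3.37 CPM in C57BL/6 and 45.6 ± 3.15 CPM in *Winnie* (SD, n = 10), a log2 fold change of -0.03 ± 0.05 (SE). *Galnt11*, an enzyme known for glycosylating Notch and members of the LDL receptor family, had means of 35.1 ± 1.502 and 34.6 ± 1.19 CPM, a log2 fold change of -0.02 ± 0.04 (SE). The spread of *Galnt11* within a genotype, 3.89%, was that expected from counting, 3.90%, so no spread between brains beyond counting was detectable at this depth. That of *Galnt1* was 7.08% against 3.39%.

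*Galnt7*, a follow-up enzyme that prefers peptides already carrying N-acetylgalactosamine, ran from 9.70 over a median of 11.5 to 14.3 CPM in C57BL/6 brains. It ran from 11.3 over 12.7 to 15.8 CPM in *Winnie* brains. The ranges overlapped for most brains, with 8 *Winnie* brains above the C57BL/6 median, and the log2 fold change was 0.17 ± 0.07 (SE).

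*Galnt9* and *Galnt13* are known as isoforms of the nervous system. *Galnt9* had nearly the same median in both genotypes, 80.1 CPM in C57BL/6 and 80.2 CPM in *Winnie*, but different ranges, from 72.7 to 99.5 and from 58.2 to 87.5 CPM. In 4 *Winnie* brains it lay below the lowest C57BL/6 brain, and its log2 fold change of -0.13 ± 0.07 (SE) was the lowest of the 10. *Galnt13* had a median of 34.6 CPM in C57BL/6 and 36.2 CPM in *Winnie*, and its log2 fold change was 0.00 ± 0.05 (SE).

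*Galnt14*, *Galnt16* and *Galnt18* are less studied in brain. *Galnt16* was the member with most CPM, from 162.8 over a median of 191.4 to 198.8 CPM in C57BL/6 and from 173.7 over 197.3 to 209.3 CPM in *Winnie*. In 4 *Winnie* brains it lay above the highest C57BL/6 brain, and the log2 fold change was 0.08 ± 0.04 (SE). *Galnt14* and *Galnt18* had log2 fold changes of -0.04 ± 0.06 and -0.03 ± 0.05 (SE), with means of 19.3 and 27.6 CPM in C57BL/6 and of 18.8 and 26.9 CPM in *Winnie*.

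**Figure D1:**
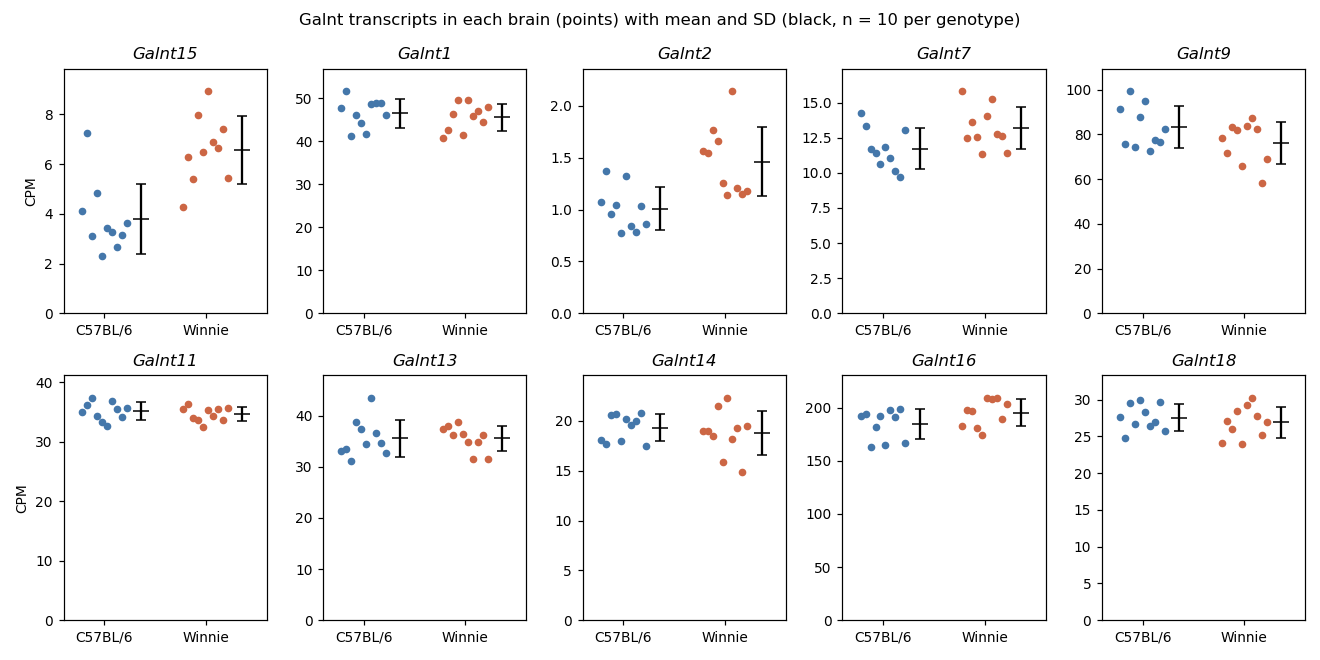
CPM of the 10 *Galnt* members in each brain, by genotype, with 1 point per mouse and the mean and SD in black (n = 10 per genotype). The *Winnie* points of *Galnt15* and *Galnt2* all lie above the C57BL/6 median, with overlap between the groups, and the points of *Galnt1*, *Galnt11* and *Galnt18* lie over the same range in both.

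Across the 10 members, 5 had a higher and 5 a lower mean log2 value in *Winnie*, with a median log2 fold change of -0.01 against 0.00 over all genes, and 5 lay within 0.05 of zero. At a false discovery rate (FDR, the Benjamini-Hochberg adjusted p of limma) under 0.05, 2 of the 10, *Galnt15* and *Galnt2*, were called, beside 2.52% of all genes. The members were picked from this comparison, so nothing is read from that count or from its changes when a sample is left out. In 0 of 10 members did the groups separate without overlap, which 0.0291% of all genes did. Over the 20 fits that each leave out 1 sample, *Galnt15* had log2 fold changes from 0.70 to 0.86 and *Galnt2* from 0.32 to 0.41. The count fell to 1, with *Galnt2* lost, without any one of C57BL/6 replicates 3, 4, 5, 7, 8, 9 and 10 and *Winnie* replicates 1, 2, 3, 4, 7 and 8.

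**Figure D2:**
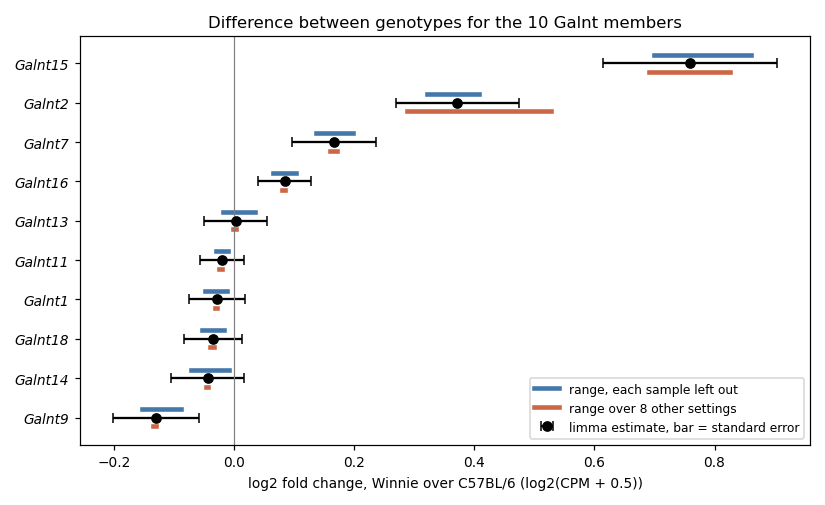
Log2 fold change of each member, *Winnie* over C57BL/6, on log2(CPM + 0.5). Black points and bars are the limma estimate and its standard error, blue lines the range with each sample left out, and orange lines the range over 8 other settings; *Galnt15* lies highest at 0.76 and *Galnt9* lowest at -0.13.

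Genes within 500000 bases of the members were called no more often than all genes. Of 111 such genes 1 was called by limma at an FDR under 0.05, 0.901% against 2.52% of all genes, and 17.1% had an unadjusted p under 0.05 against 17.6% of all genes. Within 500000 bases of *Galnt15*, 0 of 13 measured genes were called and 3 had an unadjusted p under 0.05, with log2 fold changes from -0.29 to 0.16. Around *Galnt2* the counts were 0 and 2 of 19. The only called neighbour of any member was *Xdh*, xanthine dehydrogenase of purine breakdown, near *Galnt14*, and it was noticed after its values were seen.

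Compared per length, the members covered a wide range of levels. Per kilobase of exonic length, *Galnt9* came first with a median of 26.7 CPM per kilobase over the 20 brains, followed by *Galnt16* with 23.8, *Galnt18* with 10.49 and *Galnt1* with 8.38. *Galnt11* with 5.12, *Galnt13* with 4.55, *Galnt14* with 3.25 and *Galnt7* with 2.38 CPM per kilobase came next. *Galnt15* at 0.808 and *Galnt2* at 0.273 CPM per kilobase were the lowest. Each gene lay above the next in 20 of 20 brains, except that *Galnt9* lay above *Galnt16* in 16 and *Galnt11* above *Galnt13* in 18, so these neighbours overlapped. *Galnt9* and *Galnt16* thus held a median of 30.6% and 28.2% of the summed level per kilobase of the 10 members. *Galnt15* held 0.618% of it in C57BL/6 and 1.18% in *Winnie* brains.

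The order depends on the length used. With the longest transcript or the coding length in place of all exons, *Galnt16* came first, with 38.7% or 44.1% of the sum, while *Galnt15* and *Galnt2* remained at ranks 9 and 10. A further length, chosen after the overlap was seen, was that of the exonic bases not shared, 428 for *Galnt2*. With the same CPM divided by it, *Galnt2* came at rank 8 and *Galnt15* at rank 10. Reads in those bases alone were not counted. The *Galnt2* level is overstated in this way if any counted read fell in the shared bases, which is not known. Of the other family members in the table, *Galnt17* was near *Galnt18* with 10.7 CPM per kilobase, and *Galnt3* and *Galnt12*, with 0.385 and 0.478, lay between *Galnt2* and *Galnt15*.

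**Figure D3:**
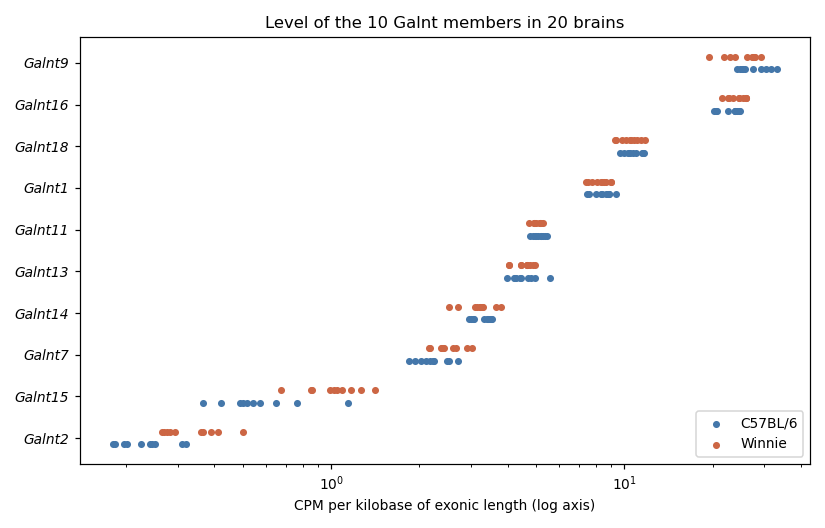
CPM per kilobase of exonic length on a log axis for the 10 members, with 1 point per brain and the genotypes in separate rows. *Galnt9* and *Galnt16* lie near 26.7 and 23.8, and *Galnt15* and *Galnt2* lie lowest, near 0.808 and 0.273.

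The other genes of the mucin-type pathway were called no more often than all genes. Of 73 listed genes that are no members, 59 were measured, and at a limma FDR under 0.05 there were 0 higher and 1 lower in *Winnie*, beside 1.52% higher and 1.01% lower of all genes. Their median log2 fold change was 0.02, and 9 of the 59, or 15.3%, passed an unadjusted p under 0.05, a threshold that 17.6% of all genes passed. These shares are near those of all genes. The gene called was *Hexa*, a lysosomal hexosaminidase subunit that removes terminal N-acetylhexosamines. It ran from 48.2 over a median of 50.6 to 54.5 CPM in C57BL/6 and from 42.8 over 45.2 to 49.6 CPM in *Winnie*, a log2 fold change of -0.15 ± 0.04 (SE; limma, adjusted p = 0.0228). All 10 *Winnie* brains lay at or below the C57BL/6 median. *Hexa* also acts on glycolipids, and it was the only one of 7 measured genes of sugar removal to be called. Without C57BL/6 replicate 5 or *Winnie* replicate 3 the count over the pathway was 0, and without C57BL/6 replicate 1 or 10 it was 3, with *Lrp1* and *St6galnac3* added to *Hexa*. Without *Winnie* replicate 1 it was 2.

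In each other step, 0 genes were called by limma, and at an unadjusted p under 0.05 there were 2 sialyltransferases, 3 sugar donor genes and 2 mucins or other O-glycosylated proteins. The 7 other *Galnt* genes ranged in log2 fold change from -0.01 for *Galnt3* to 0.09 for *Galnt12*. The 10 genes of chain extension ranged from -0.04 for the chaperone *C1galt1c1* to 0.19 for *B3gnt2*, which builds N-acetyllactosamine chains. None of the genes of these 2 groups had an unadjusted p under 0.05 by limma. Among 8 sialyltransferases the lowest was *St6galnac6* at -0.10 and the highest *St6galnac3* at 0.19 ± 0.06 (SE; limma, adjusted p = 0.0753), with all 10 *Winnie* brains above the C57BL/6 median. Among 12 genes of sugar donors, *Nans*, which makes sialic acid phosphate, was lowest at -0.17 ± 0.06 (SE; limma, adjusted p = 0.119), and *Gne*, the enzyme at the start of sialic acid synthesis, was highest at 0.07. Of 15 measured mucins and other O-glycosylated proteins, *Pdpn* was lowest at -0.15 and *Muc1* highest at 0.27 ± 0.14 (SE; limma, adjusted p = 0.302), a gene at about 1 CPM. *Lrp1*, a large receptor of the LDL receptor family, had 0.15 ± 0.04 (SE; limma, adjusted p = 0.0589) and is named after its values were seen.

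In *Winnie* brains, 5 labelled female and 5 labelled male samples were compared, a contrast that did not choose the members. By limma 0 of 10 members were called at an FDR under 0.05, beside 0.116% of all genes, and edgeR and DESeq2 on the recovered reads also called 0. At an unadjusted p under 0.05 there were 2 members, *Galnt13* and *Galnt16*, beside 9.81% of all genes. *Galnt13* had 37.3 ± 1.09 CPM in labelled females and 33.8 ± 2.13 CPM in labelled males (SD, n = 5), a log2 difference, female minus male, of 0.14 ± 0.06 (SE; limma, adjusted p = 0.415). Only 1 male, at 36.3 CPM, lay within the female range. *Galnt16* went the other way, with 186.4 ± 10.47 CPM in labelled females and 203.9 ± 8.50 CPM in labelled males, a log2 difference of -0.13 ± 0.05 (SE; limma, adjusted p = 0.401). *Galnt15* had 6.08 ± 1.38 and 7.06 ± 1.28 CPM, a log2 difference of -0.21 with a 95% interval from -0.50 to 0.08. With 5 samples a side these intervals leave room for a difference in either direction for *Galnt15*.

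How the members vary between brains of a genotype was measured after the mean of each genotype was removed from log2(CPM + 0.5). Over 45 pairs of members, 0 passed an adjusted p under 0.05 and 7 an unadjusted p under 0.05 (two-sided permutation test within genotypes, 100000 resamples, n = 20). The pair with the highest r was *Galnt1* and *Galnt16*, with Pearson's r of 0.68 and Spearman's rho of 0.65 (permutation test, p = 0.00178 and 0.00335, adjusted p = 0.0801 and 0.124). It was 0.79 in C57BL/6 and 0.55 in *Winnie*, 0.59 without the 2 brains farthest from the median, and it passed the adjusted threshold without C57BL/6 replicate 5 or without *Winnie* replicate 4. *Galnt18* varied with *Galnt9* (r = 0.59) and with *Galnt14* (r = 0.56), at permutation adjusted p of 0.200 and 0.234. For *Galnt15* the highest r was with *Galnt1*, with an r of 0.50 and a rho of 0.38 (permutation test, p = 0.0289 and 0.109, adjusted p = 0.260 and 0.613). Without the 2 brains farthest from the *Galnt15* median that r was 0.26, and the lowest with 1 brain left out was 0.37. Leaving out extreme values narrows the range and can itself lower r, so whether the relation rests on those brains is not settled.

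*Galnt15* was also set against markers of brain cell types. Its r was 0.54 (rho = 0.43) with the mean of 10 astrocyte markers and 0.52 (rho = 0.48) with that of 10 endothelial markers (permutation test of r, p = 0.0274 and 0.0351, adjusted p = 0.315 and 0.351 over 120 relations; of rho, p = 0.067 and 0.039, adjusted p = 0.447 and 0.312). Within genotypes these were 0.48 and 0.48 in C57BL/6 and 0.66 and 0.61 in *Winnie*. Without the 2 brains farthest from the *Galnt15* median they were 0.28 and 0.29, and the lowest with 1 brain left out were 0.38 and 0.33. Leaving out extreme values narrows the range and can itself lower r, so whether both rest on those brains is not settled. Without C57BL/6 replicate 4 the relation with the endothelial markers passed the adjusted threshold. Between genotypes the summed astrocyte markers ranged from 4044 to 4806 CPM in C57BL/6 and from 4159 to 4824 CPM in *Winnie*, with 0 of 10 called. The summed endothelial markers ranged from 201.3 to 280.4 and from 225.0 to 266.1 CPM, and 7 of the 10 had a higher mean log2 value in *Winnie*. *Cldn5*, a tight junction protein, was called lower (log2 fold change -0.47), while *Slco1a4* and *Abcb1a*, transporters of the blood-brain barrier, had log2 fold changes of 0.34 and 0.17 (limma, adjusted p = 0.0503 and 0.123), each with all 10 *Winnie* brains above the C57BL/6 median. Those of meningeal and perivascular fibroblasts ranged from 620.3 to 798.7 and from 730.1 to 905.3 CPM, with *Ptgds*, which makes prostaglandin D2, and *Pdgfra*, a receptor also found in oligodendrocyte precursors, called higher. Without *Ptgds*, which holds most of that sum, it ranged from 191.5 to 262.0 and from 223.2 to 277.3 CPM, and the collagen genes *Col3a1* and *Col1a1* of the same list had log2 fold changes of -0.28 and -0.24 (limma, adjusted p = 0.136 and 0.216). *Abcc9* of pericytes was called higher and *Olig2* of oligodendrocytes lower. These 5 were the only ones called of the 119 measured markers, with *Pvalb* counted once per list, 4.202% beside 2.52% of all genes. All markers named here were chosen after their values were seen. None of the markers of astrocytes, endothelium, pericytes or fibroblasts was at 0 in any brain. Their part in the *Galnt15* difference was not tested.

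**Figure D4:**
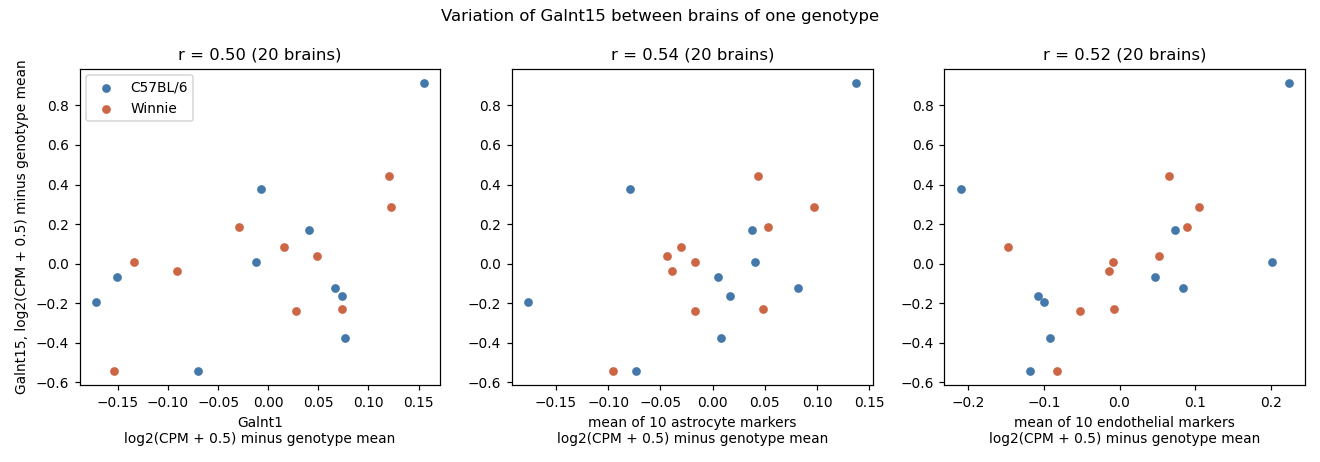
Each point is 1 of 20 brains, with *Galnt15* on the vertical axis and *Galnt1*, the mean of 10 astrocyte markers or the mean of 10 endothelial markers on the horizontal axis, all as log2(CPM + 0.5) minus the genotype mean. The r values are 0.50, 0.54 and 0.52, and C57BL/6 replicate 2 is the point at the upper right of each panel.

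Over all 10 members and 12 marker lists, 0 of 120 relations passed an adjusted p under 0.05 and 14 an unadjusted p under 0.05 by the same permutation test. *Galnt1* had the highest r, 0.73 (rho = 0.71) with the astrocyte markers (permutation test, p = 0.00049 and 0.0011, adjusted p = 0.0588 and 0.132), with 0.77 in C57BL/6, 0.70 in *Winnie* and 0.60 without the 2 farthest brains. It passed the adjusted threshold without C57BL/6 replicate 4 or 6 or without *Winnie* replicate 5, 8 or 9. *Galnt13* varied with the markers of inhibitory neurons (r = 0.63, rho = 0.64, permutation adjusted p = 0.139 and 0.142). *Galnt18* went down where choroid plexus markers went up (r = -0.65, rho = -0.68, permutation adjusted p = 0.138 for r), and passed the adjusted threshold without *Winnie* replicate 4. *Galnt9* and the microglia markers had an r of -0.62 (rho = -0.62, permutation adjusted p = 0.139 for r), which was -0.90 in *Winnie* and 0.03 in C57BL/6 brains, and passed it without C57BL/6 replicate 3. The difference between these r values was not tested.

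**Figure D5:**
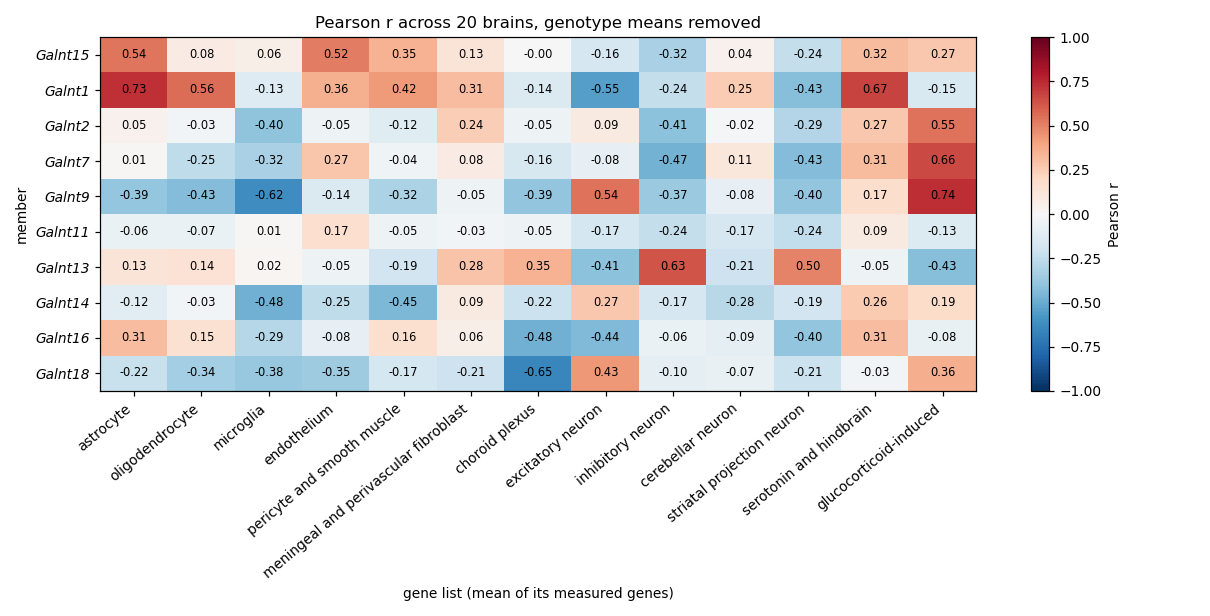
Pearson r of each member (rows) with the mean of each list (columns) across 20 brains after the genotype means were removed, from blue at -1 to red at 1. The highest cells are *Galnt9* with the glucocorticoid-induced list (0.74, a column added after the data were seen) and *Galnt1* with the astrocyte markers (0.73), and the lowest is *Galnt18* with the choroid plexus markers (-0.65).

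Among 15158 genes at a mean of 1 CPM or more, the 8 whose pattern was most like that of *Galnt15* across the 20 brains, with genotype means removed, are given as a description. The list starts with *Pbrm1*, a subunit of a chromatin remodelling complex, with an r of 0.78 (0.77 in C57BL/6 and 0.80 in *Winnie*). *Psph*, the last enzyme of serine synthesis, followed with 0.77 and *Vwf*, the von Willebrand factor of endothelium and platelets, with 0.76. *Nfrkb* had 0.75, *Epas1*, a hypoxia-inducible transcription factor, 0.74, *E230020A03Rik* 0.74, *Zfp112* 0.74 and *Mtdh* 0.73. Without the 2 farthest brains these r values ran from 0.54 for *Nfrkb* to 0.75 for *Pbrm1*. Between genotypes, *Epas1* and *Nfrkb* were higher in *Winnie* (log2 fold changes of 0.20 and 0.19; limma, adjusted p = 0.0355 and 0.0369), and the other 6 were not called. All these values share the same libraries.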

How the data were processed

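The authors extracted RNA from brains, sequenced polyA libraries on an MGISEQ2000RS, processed reads with RNAsik on GRCm38, counted reads per gene with FeatureCounts and deposited CPM made with Degust. The aligner, the strandedness and the filter on low counts are not given in the sources used here. Counts were recovered from the CPM steps, and whole counts gave back 100% of the deposited values, which have 3 decimals, within 0.0011 CPM, and 0 columns belonged to no sample. The standard errors and intervals of limma come from the spread between samples, which includes counting error. Every one of the 17211 genes reached 0.5 CPM in at least 4 samples.

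Samples were grouped by the labelled genotype and sex, and all 20 were used. The main test was limma 3.58.1 (R 4.3.3, trend and robust) on log2(CPM + 0.5) over all genes, with Benjamini-Hochberg adjustment; fold changes of low genes are understated on this scale. An FDR under 0.001 with a 1.5-fold change, as the study used with edgeR, was passed here by 0 genes in limma or edgeR and by 12 in DESeq2, so an FDR under 0.05 was used. Alternatives on the recovered counts were edgeR 4.0.16 and DESeq2 1.42.0. Correlations used permutation tests in scipy 1.17.1, numpy 2.4.6 and Python 3.11.15. The tests were tried on simulated data with known changes.

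The members and gene lists were chosen with earlier results of these data known. Named genes were the members, pathway genes past the threshold and at either end of each list, and the 8 genes most like *Galnt15*. Exons come from GENCODE M21, which held 17128 of the genes, and promoters from RefSeq. Alternatives were pseudocounts of 0.1 and 1, a mean of at least 1 CPM, median-ratio scaling, labelled sex, a replicate block, other lengths and each sample left out.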

Additional observations from a re-analysis of the deposited data

Results flagged for a closer look

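Values of 3 members lay apart from the other samples of their group by Dixon's criterion. *Galnt15* in C57BL/6 replicate 2 was 7.24 CPM, the highest of 10, with the next at 4.83 CPM. *Galnt2* in *Winnie* replicate 7 was 2.15 CPM, the highest of 5 labelled males, with the next at 1.21 CPM. *Galnt16* in *Winnie* replicate 9 was 189.2 CPM, the lowest of 5 labelled males, with the next at 203.8 CPM. The flags of *Galnt2* and *Galnt16* arose only within the labelled males. Among all 10 *Winnie* brains the next *Galnt2* value was 1.76 CPM, in replicate 3. Replicate 9 was not the lowest of the 10 for *Galnt16*, which was 173.7 CPM in replicate 5. In all 40 groups were examined and 3 gave such a sample. Chance gives about 1 in 20 for a single group, but some groups share samples, so the count was not tested against it. Without C57BL/6 replicate 2 the log2 fold change of *Galnt15* was 0.86 in place of 0.76, and without *Winnie* replicate 7 that of *Galnt2* was 0.32 in place of 0.37 and no longer past an FDR under 0.05 by limma.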

How the results depend on the processing

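The log2 fold change of *Galnt15* ranged from 0.69 to 0.83 over 8 settings and that of *Galnt2* from 0.29 to 0.53. Counts of calls among the members come from the contrast that chose them, and nothing is read from them. *Galnt13*, near zero, had the same sign in 14 of 28 fits. Replicate numbers do not pair the samples (same-numbered samples had correlations from -0.29 to 0.15, and 1 of 10 correlated best with its own number). With the replicate block, 1 member (*Galnt15*) and 0 pathway genes were called, and 227 genes in all in place of 434. DESeq2 called 1 member, giving no adjusted p for *Galnt2*, 4 pathway genes (*Hexa*, *Lrp1*, *Nans* and *St6galnac3*) and 977 genes in all. For labelled sex in *Winnie*, 0 members were called under every setting, with 20 genes in all by limma, 107 by DESeq2 and 12 to 67 with a sample left out. No paired analysis was possible for labelled sex because the sexes share no replicate numbers. With each sample left out, the members called ranged from 1 to 2, the pathway genes from 0 to 3, all genes from 169 to 694, pairs of members from 0 to 1 and marker relations from 0 to 2. With the labelled sex means removed too, 1 marker relation passed, *Galnt1* with serotonin and hindbrain markers. With the longest transcript 4, with the coding length 5 and with the unshared exonic length 7 of the 10 members kept their rank in level. The cause of these changes was not tested. The reads behind *Galnt2*, at most 40, limit what its values can show.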

Other observations

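By Pearson's r 3 of the 10 members, and by rho 2, varied between brains with genes that glucocorticoids induce, a relation examined after the data were seen. How many of all genes vary with these genes was not measured, so the counts are not read as particular to the members. The list of 16 such genes, among them *Sgk1*, *Tsc22d3*, *Plin4* and *Hif3a*, was written with earlier results of these data known. At a limma FDR under 0.05 it had 7 genes higher and 0 lower in *Winnie*, beside 1.52% higher and 1.01% lower of all genes. Nothing is read from that count, and the median log2 fold change of the list was 0.42. With genotype means removed, *Galnt9* had an r of 0.74 and a rho of 0.77 with the mean of the list (permutation test, p = 0.00038 and 0.00026, adjusted p = 0.0038 and 0.00195 over 10 members), with 0.73 in C57BL/6 and 0.76 in *Winnie*. *Galnt7* had an r of 0.66 and a rho of 0.75 (permutation test, p = 0.00256 and 0.00039, adjusted p = 0.0128 and 0.00195). Both stayed under an adjusted p of 0.05 in 20 of 20 fits with a sample left out and under 4 other settings. *Galnt2* had an r of 0.55 and a rho of 0.54 (permutation test, adjusted p = 0.0487 and 0.0611) and kept the call by r in 6 of 20 such fits and in 2 of the 4 other settings. Without the 2 farthest brains the r values were 0.75, 0.65 and 0.50. For *Galnt15* the r was 0.27 (permutation adjusted p = 0.469). The genotype difference of the list is not read as a result, because the list was written with earlier results of these data known. Between genotypes the log2 fold changes of the 3 members were -0.13 for *Galnt9*, 0.17 for *Galnt7* and 0.37 for *Galnt2*. Any link between these differences and the list was not tested.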
